A study of Mus musculus with 2 samples.

Results

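The 10 genes described here encode the core of the mouse Hippo pathway and its transcription factors: the kinases Stk3, Stk4, Lats1 and Lats2, the coactivators Yap1 and Wwtr1, and the DNA-binding factors Tead1, Tead2, Tead3 and Tead4. They were chosen by name, as the kinase pairs, coactivators and TEAD factors of the pathway, out of 22556 genes in the count table, and all 10 were found in it. Polyadenylated RNA was sequenced from 1 group of mouse embryonic stem cells in 2 libraries, labelled replicates 1 and 2. The cells were XX and hybrid, with a domesticus (Dom/129S) and a castaneus (Cast) genome, and came from the F1 2-1 parental line. In this iXist-ChrX-Dom line a TetOn promoter takes the place of the endogenous Xist promoter on the Dom/129S allele, so that doxycycline can switch Xist on. Both libraries were from untreated cells at 0 h with no doxycycline, and both came from 1 clone (B2), so that nothing here compares treatments, genotypes or clones. Cells were grown in serum and LIF on mitomycin-inactivated mouse fibroblast feeders. Before experiments, pre-plating let the feeders attach first, and the cells still in suspension were used. The labels do not say whether the replicates were separate cultures. Any p-value below sets the difference between these libraries, which may be technical, against counting error alone.

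The Hippo pathway is a kinase cascade best known for control of organ size. MST kinases (Stk3 and Stk4) activate LATS kinases (Lats1 and Lats2), which phosphorylate the coactivators YAP (Yap1) and TAZ (Wwtr1) and so keep them out of the nucleus. Unphosphorylated YAP and TAZ enter the nucleus and bind TEAD factors, which carry them to DNA. In the early mouse embryo this switch takes part in the choice between inner cell mass and trophectoderm, in which Tead4 acts upstream of Cdx2. The values below are of RNA, and say nothing of phosphorylation or of where the proteins were.

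The libraries held 23716499 counts in replicate 1 and 20275749 in replicate 2, and the 10 genes took 0.0669% and 0.0689% of them. A count of 0 allows a level of up to 0.126 CPM (counts scaled to the library total) in replicate 1 and 0.148 in replicate 2, for counting error only. Levels were compared between genes as TPM (transcripts scaled to the library), with counts divided by the summed length of each gene's annotated exons. The counts were taken over whole gene spans, so any reads from introns are in them, and their share was not measured. The study describes these mRNA data as holding very few such reads. Of 14 embryonic stem cell markers, 13 stood at a mean of at least 1 TPM, with Nanog at 774 TPM and Utf1 below that level. The libraries stood apart in some of these markers: Pou5f1 had 1129 counts in replicate 1 and 142 in replicate 2, and Dppa5a had 2915 and 298, whereas Nr0b1 had more in replicate 2, with 2177 and 2703. Of 15 fibroblast markers, 2 (Fbn1 and Thy1) reached 1 TPM. The summed level of the 15 was 6.66 TPM in replicate 1 and 3.75 in replicate 2, and the collagen genes were near 0, with 4 and 5 counts for Col1a1, 0 and 1 for Col3a1, and none for the fibroblast gene Lum. In a bulk sample, fewer cells expressing a gene and less RNA per cell cannot be told apart.

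The core kinases and coactivators were all present, and the TEAD factors covered the widest range. Of the 10 genes, 9 had at least 10 counts in each library and a mean of at least 1 TPM, and the remaining gene was Tead3. With the deposited length 9 of the 10 also reached 1 TPM, where 52.7% of all genes did. With exonic length 55.4% of all genes reached 1 TPM, and 56.2% had at least 10 counts in each library. At a floor of 5 TPM, 7 of the 10 genes passed, against 40.6% of all genes. The median of the 10 genes was 37.4 TPM, against 1.86 TPM over all genes with an exonic length. From highest to lowest mean, the order was Stk3, Yap1, Stk4, Wwtr1, Tead1, Lats1, Tead2, Tead4, Lats2 and Tead3. Each library taken alone gave this order, except that Wwtr1 stood above Stk4 in replicate 2. Of the 45 pairs that can be formed from these genes, 43 had ranges over the libraries that did not overlap. The exceptions were neighbours in the order, Stk3 with Yap1 and Stk4 with Wwtr1. The order depends on the length used: with the deposited length, which spans introns, 31 pairs kept their order without overlap and 7 stood in the other order. With CPM, 35 pairs kept their order and 3 stood in the other order.

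**Figure D1:**
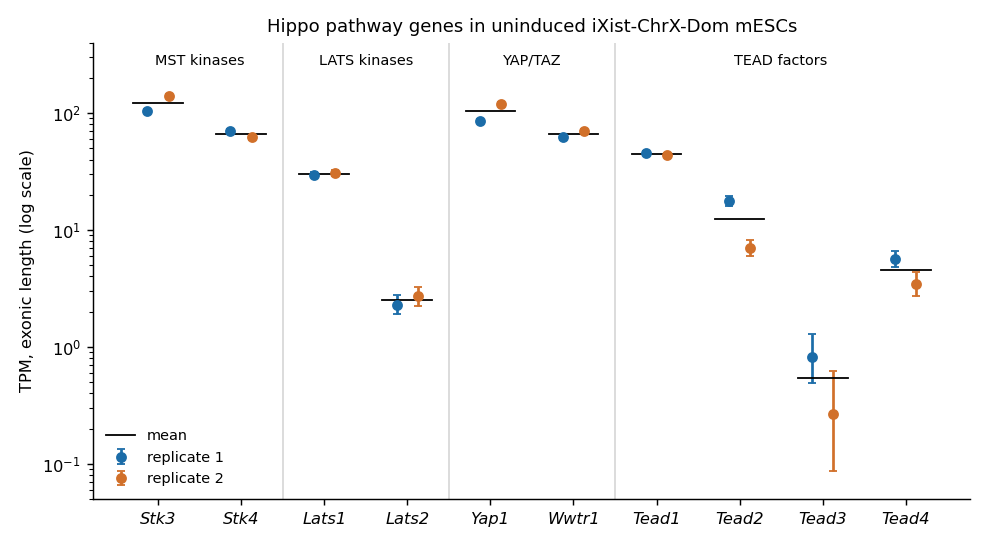
Level of each of the 10 genes in TPM on a log scale (exonic length), with 1 point for each library, error bars for the exact 95% counting interval (smaller than the point where not seen) and a black line at the mean of the 2 libraries. Stk3 and Yap1 stand highest, at means of 122 and 103 TPM, and Tead3 is lowest at 0.545 TPM.

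Yap1 and Wwtr1 were both well expressed, with Yap1 the higher in each library. Yap1 encodes the coactivator YAP and spans chr9:7932000-8004596 on the minus strand (mm10, as in the count table). Its 2693 and 3037 counts in replicates 1 and 2 correspond to 85.9 and 120 TPM, a mean of 103 ± 24.4 TPM (SD, n = 2). This level is at percentile 90.0 of all genes. Wwtr1, which encodes the coactivator TAZ, spans chr3:57455643-57575910 on the minus strand. The 2220 and 2010 counts of Wwtr1 gave 61.8 and 69.6 TPM, a mean of 65.7 ± 5.50 TPM (SD, n = 2). The ranges of the paralogues did not overlap, and Yap1 was 1.39 times as high as Wwtr1 in replicate 1 and 1.73 times in replicate 2. Yap1 made up 58.2% of their summed TPM in replicate 1, with an exact 95% binomial interval of 56.8% to 59.5%. In replicate 2 its share was 63.4%, with an interval of 62.1% to 64.7%. These intervals cover counting error only, and the libraries lay outside each other's, for a mean share of 60.8% ± 3.70 (SD, n = 2).

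Lats1 was the predominant LATS kinase gene. Lats1 spans chr10:7681208-7716461 on the plus strand, and its product phosphorylates YAP and TAZ. It had 1623 and 1354 counts, or 29.6 and 30.7 TPM, a mean of 30.1 ± 0.783 TPM (SD, n = 2). Lats2, its paralogue with the same substrates, spans chr14:57689661-57746123 on the minus strand. Its 112 and 106 counts gave 2.30 and 2.71 TPM, a mean of 2.51 ± 0.288 TPM (SD, n = 2), at percentile 52.8 of all genes. Lats1 was therefore 12.9 times as high as Lats2 in replicate 1 and 11.3 times in replicate 2. Its share of the summed TPM was 92.8% (exact 95% interval 91.4% to 94.0%) in replicate 1. In replicate 2 the share was 91.9% (90.3% to 93.3%), and the intervals overlapped. The level of Lats2 is uncertain in 1 respect, as 56.5% of the 50-base words in its longest transcript also occur in transcripts of Gm49361. Gm49361 is a protein-coding gene model annotated at the same place on the same strand and not listed in the count table.

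With exonic length the MST kinase genes were among the highest of the 10, although their place turned on the length by which counts were divided. Stk3, which encodes MST2, spans chr15:34875498-35155806 on the minus strand. Its 2348 and 2569 counts gave 104 and 141 TPM, a mean of 122 ± 26.5 TPM (SD, n = 2), at percentile 91.5. Stk4, which encodes MST1, spans chr2:164074177-164155521 on the plus strand. It had 2798 and 1993 counts, or 70.0 and 62.0 TPM, with a mean of 66.0 ± 5.65 TPM (SD, n = 2). By exonic length Stk3 was 1.48 times as high as Stk4 in replicate 1 and 2.28 times in replicate 2, and the ranges did not overlap. Its share of the pair was 59.7% in replicate 1 and 69.5% in replicate 2. Exons make up 1.07% of the long span of Stk3, and with the deposited span length its share was 19.6% and 27.2%, below that of Stk4 in both libraries, and its mean of 6.88 TPM was 7th of the 10. With no length at all, its share of the pair's CPM was 45.6% in replicate 1 and 56.3% in replicate 2, so that the higher gene differed between the libraries.

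With exonic length Tead1 was the main TEAD gene, followed by Tead2 and Tead4, and Tead3 was near the limit of detection. The TEAD factors share a DNA-binding domain and differ in the tissues in which they are best known. Tead1 spans chr7:112679319-112906805 on the plus strand, and had 3431 and 2669 counts. These are 45.4 and 43.9 TPM, a mean of 44.7 ± 1.05 TPM (SD, n = 2), the smallest spread relative to its mean among the 10 genes in TPM. In CPM the relative spread of Tead1 (138 ± 9.22 CPM) was larger than those of Lats1 (67.6 ± 1.17) and Wwtr1 (96.4 ± 3.91; SD, n = 2). Tead2, a TEAD factor of the early embryo, spans chr7:45215752-45233619 on the plus strand. Its 465 counts in replicate 1 and 149 in replicate 2 gave 17.7 and 7.04 TPM, a mean of 12.4 ± 7.51 TPM (SD, n = 2). The Tead2 level was thus higher in replicate 1, and its range overlapped with that of no other gene of the 10.

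Tead4, the factor known for the trophectoderm, spans chr6:128227142-128300813 on the minus strand. It had 152 and 75 counts, or 5.64 and 3.46 TPM, a mean of 4.55 ± 1.54 TPM (SD, n = 2). Tead3 spans chr17:28331672-28350805 on the minus strand, and is best known from placenta. Its 19 counts in replicate 1 gave 0.821 TPM (exact 95% counting interval 0.494 to 1.28), and its 5 counts in replicate 2 gave 0.269 TPM (0.087 to 0.627). The intervals overlap, and the mean of 0.545 ± 0.390 TPM (SD, n = 2) is the only one of the 10 below 1 TPM.

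Of the summed TPM of the 4 TEAD genes, Tead1 took 65.3% in replicate 1 and 80.3% in replicate 2, a mean of 72.8% ± 10.6 (SD, n = 2). The share of Tead2 moved the other way, at 25.4% in replicate 1 and 12.9% in replicate 2. Tead4 held 8.10% and 6.32%, and Tead3 held 1.18% and 0.49%. Tead1 was 2.57 times as high as Tead2 in replicate 1 and 6.24 times in replicate 2. This order also depends on the length, because exons are 4.42% of the span of Tead1 and 19.6% of that of Tead2. With the span length, Tead1 was 0.580 times as high as Tead2 in replicate 1 and 1.41 times in replicate 2.

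**Figure D2:**
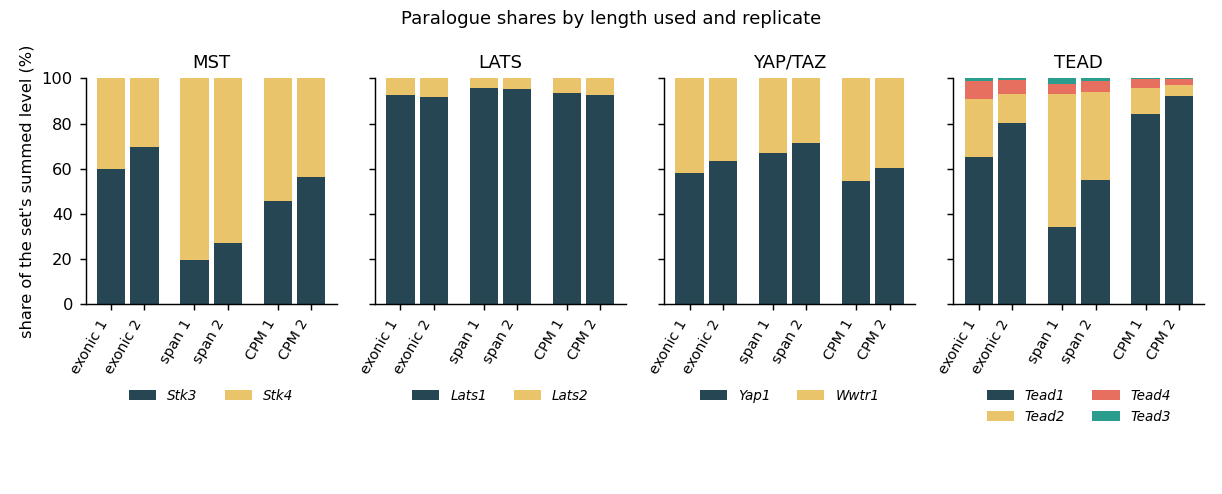
Share of each gene in the summed level of its paralogue set (%), as stacked bars for replicates 1 and 2 on 3 scales: TPM with exonic length, TPM with the deposited span length, and CPM. Yap1 and Lats1 lead their set on every scale in both libraries, whereas the Stk3 share is 59.7% and 69.5% with exonic length and 19.6% and 27.2% with span length, and the Tead1 share in replicate 1 falls below that of Tead2 with span length.

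Summed over paralogues with exonic length, the MST genes stood highest and the LATS genes lowest. The MST pair reached 174 TPM in replicate 1 and 203 in replicate 2, and the coactivator pair 148 and 190 TPM. The 4 TEAD genes together gave 69.5 and 54.7 TPM, and the LATS pair 31.9 and 33.4 TPM. Coactivator RNA was therefore 2.12 times the TEAD RNA in replicate 1 and 3.47 times in replicate 2. It was 4.63 and 5.69 times the LATS RNA. Both quotients were larger in replicate 2, and with 2 libraries neither difference can be tested. The order of the sums and the size of the quotients depend on the length. With the deposited length the coactivator pair was highest, at 37.5 and 51.8 TPM, and the MST pair had 28.8 and 29.8 TPM, the lowest sum in replicate 1. The quotient over LATS was then 1.16 and 1.45, and that over TEAD 1.26 and 2.74. In CPM the quotients were 2.83 and 3.46 over LATS and 1.21 and 1.74 over TEAD, and the coactivator pair (249 CPM) stood above the MST pair (225 CPM) in replicate 2.

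The starts of these genes were next set beside the DNA letters that TEAD factors are known to bind, GGAATG on one strand and CATTCC on the other. RefSeq promoter windows (GRCm38.p6, 250 bases before to 50 after a gene start) matched 7 of the 10 genes by symbol, with 11 windows, and Stk3, Tead1 and Tead4 had none. A match on either strand was found in 6 of the 11 windows and in 4 of the 7 genes: Yap1, Wwtr1, Lats2 and Tead3. Of all 32851 windows, 14.7% held a match, and 16.6% of genes had one in any window. The windows of Wwtr1 overlap and hold the same match, those of Tead3 overlap in part, and those of Lats2 lie apart. These genes are shown with Ccn1, a well-known YAP target, which also has a match. Ccn2, the other target looked up, had no window. Each sequence runs from 250 bases before the start of the gene in the count table to 30 bases after it, 5′ to 3′ on the gene's strand, with the matching letters in capitals. The windows lie at chr9:8004567-8004846 (Yap1), chr3:57575881-57576160 (Wwtr1), chr14:57746094-57746373 (Lats2), chr17:28350776-28351055 (Tead3) and chr3:145649956-145650235 (Ccn1), all on the minus strand.
Yap1: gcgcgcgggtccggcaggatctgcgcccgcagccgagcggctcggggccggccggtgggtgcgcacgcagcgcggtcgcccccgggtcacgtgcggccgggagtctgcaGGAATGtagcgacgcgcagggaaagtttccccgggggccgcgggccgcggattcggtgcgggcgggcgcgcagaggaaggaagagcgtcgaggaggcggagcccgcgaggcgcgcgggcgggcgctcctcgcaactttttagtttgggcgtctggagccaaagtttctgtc
Wwtr1: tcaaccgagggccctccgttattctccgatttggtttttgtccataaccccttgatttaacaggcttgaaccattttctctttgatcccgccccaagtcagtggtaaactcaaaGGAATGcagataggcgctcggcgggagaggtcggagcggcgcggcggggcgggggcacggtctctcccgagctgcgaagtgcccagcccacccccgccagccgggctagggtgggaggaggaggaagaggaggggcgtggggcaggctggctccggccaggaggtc
Lats2: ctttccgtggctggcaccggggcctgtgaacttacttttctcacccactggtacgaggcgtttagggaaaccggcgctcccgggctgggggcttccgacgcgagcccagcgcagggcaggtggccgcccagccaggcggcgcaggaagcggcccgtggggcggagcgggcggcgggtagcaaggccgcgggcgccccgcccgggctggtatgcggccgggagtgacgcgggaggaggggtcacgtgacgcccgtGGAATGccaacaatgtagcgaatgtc
Tead3: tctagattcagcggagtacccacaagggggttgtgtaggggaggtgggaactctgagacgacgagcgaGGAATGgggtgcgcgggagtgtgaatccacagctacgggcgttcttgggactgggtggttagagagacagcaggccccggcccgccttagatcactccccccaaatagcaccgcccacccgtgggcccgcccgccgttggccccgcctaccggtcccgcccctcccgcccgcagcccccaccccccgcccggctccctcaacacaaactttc
Ccn1: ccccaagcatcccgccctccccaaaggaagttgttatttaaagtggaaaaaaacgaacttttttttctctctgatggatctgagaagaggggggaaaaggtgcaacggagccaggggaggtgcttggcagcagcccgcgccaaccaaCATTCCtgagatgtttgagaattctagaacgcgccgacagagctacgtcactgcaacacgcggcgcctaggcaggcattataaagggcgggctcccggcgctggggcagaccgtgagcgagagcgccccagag
The match lies 141 bases before the start in Yap1, 136 before it in Wwtr1, 182 before it in Tead3 and 103 before it in Ccn1, and 4 bases after it in Lats2. Of the other RefSeq windows of Tead3, which belong to starts inside the stated gene, 1 holds 3 matches and is not printed. Tead3, the lowest of the 10 genes in level, also had the most windows, and Stk4, Lats1 and Tead2, with 1 window each, had no match. A match is a string of letters and not a measured binding site. All 5 windows printed are rich in CpG, with 49 CpG in the 300 bases of Yap1, 37 in Lats2, 25 in Tead3, 20 in Wwtr1 and 20 in Ccn1, against a median of 7 over all windows.

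The pathway around the core was also largely present. Levels in these lists are with exonic length, and the order within a list changes with the deposited length, as among the kinases and the targets below. Among 16 upstream regulators, 14 had a mean of at least 1 TPM and the median was 20.4 TPM. The highest were Sav1, the scaffold of the MST kinases, at 105 and 120 TPM (mean 112 ± 10.6, SD, n = 2), and Mob1a, the coactivator of LATS, at 81.9 and 90.1 TPM (86.0 ± 5.76). Nf2, which encodes Merlin and recruits LATS to the membrane, had 62.4 and 44.5 TPM (53.5 ± 12.7). The members under 1 TPM were the atypical cadherins Fat4, with 1 and 0 counts, and Dchs1, with 4 and 1 counts.

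All 12 other kinases that act on LATS or resemble it (the MAP4K, TAO and NDR families) reached 1 TPM, with a median of 19.1 TPM. Their highest members were Map4k3 at 193 ± 20.9 TPM, Stk38 at 168 ± 25.0 TPM and Taok1 at 155 ± 32.5 TPM (SD, n = 2). With the deposited length Taok1 was highest, at 128 TPM, and Map4k3 had 28.9 TPM. The 15 genes of the STRIPAK phosphatase complex, which opposes the MST kinases, had the highest median of the pathway lists, at 95.7 TPM, and all 15 passed 1 TPM. Strn3, a scaffold of that complex, stood at 493 ± 106 TPM, Pdcd10 at 375 ± 85.9 TPM and the catalytic subunit Ppp2ca at 262 ± 23.5 TPM (SD, n = 2).

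The VGLL cofactors, which bind TEAD in place of YAP and TAZ, were low. Vgll4, known as a repressor of TEAD, had 69 and 42 counts, or 4.53 and 3.43 TPM. Vgll3 had 107 and 145 counts, or 2.03 and 3.42 TPM. The other two stayed under 1 TPM, as Vgll1 had 2 and 3 counts and Vgll2 had 0 in both libraries.

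Known YAP and TAZ targets covered a wide range. Of 22 targets, 16 reached 1 TPM, with a median of 5.43 TPM. Gadd45a, a stress-response gene, was highest at 83.2 ± 11.4 TPM, followed by the coagulation receptor F3 at 50.1 ± 4.28 TPM (SD, n = 2). The matricellular genes Ccn2 (Ctgf) and Ccn1 (Cyr61), the targets most often used as readouts, had 1025 and 691 counts and 349 and 234 counts. These are means of 45.2 ± 5.62 TPM for Ccn2 and 21.1 ± 2.70 TPM for Ccn1 (SD, n = 2). With the deposited length Ccn2 had 201 TPM and Ccn1 73.3 TPM, above F3 at 42.4 TPM. Ankrd1, which is used in the same way, had 0 and 2 counts, and Ccdc80 had none. Lats2 is itself a target on this list, and Amotl2 and Ptpn14 are on both this list and the upstream list.

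Of 6 trophectoderm genes, 1 reached 1 TPM. This was Eomes, with 396 and 243 counts, or 14.3 and 10.9 TPM. Cdx2, the gene downstream of Tead4 in trophectoderm, had 0 counts in both libraries.

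**Figure D3:**
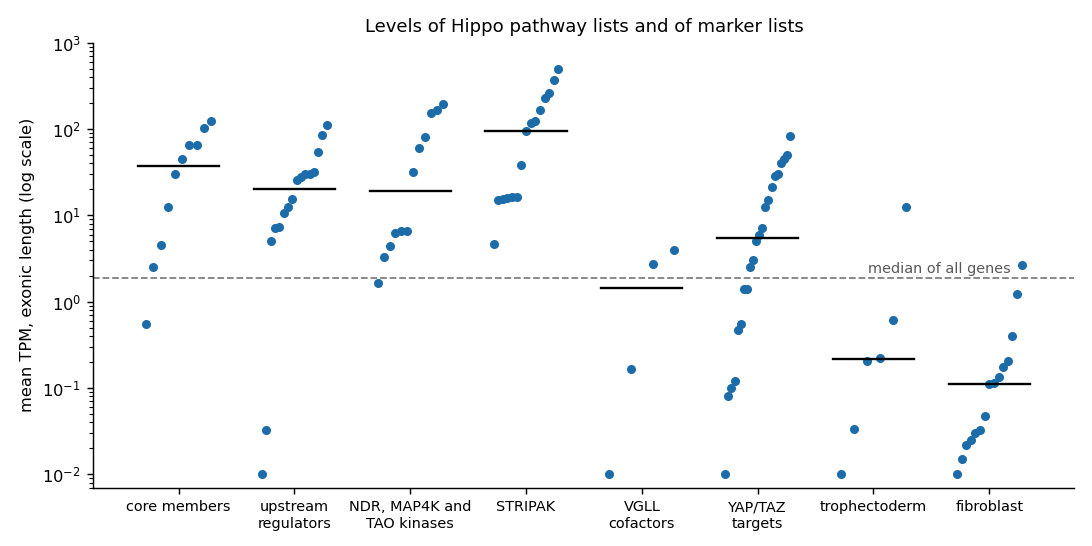
Mean TPM (log scale, exonic length, n = 2 libraries) of each gene in the core set, the pathway lists and the trophectoderm and fibroblast lists, with a bar at each list's median and a dashed line at the median of all genes, 1.86 TPM. Genes at or below 0.01 TPM are drawn at 0.01, and the STRIPAK list has the highest median of the lists drawn, 95.7 TPM.

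The last question was how far the values of the 10 genes repeated between the libraries. An exact binomial test set each gene's 2 counts against the ratio of the library totals, two-sided, with Benjamini-Hochberg adjustment over the 14536 genes with at least 10 counts in total. It compares these libraries and no conditions. Of the 10 genes, 7 differed at 0.05, 2 of them higher in replicate 2 and 5 lower. This share is near the background, as 60.8% of all genes tested differed, 15.1% higher and 45.7% lower in replicate 2. Log2 ratios below are of CPM, replicate 2 over replicate 1. TPM and CPM are scaled by different sums, so that Lats1 was slightly higher in replicate 2 in TPM and slightly lower in CPM.

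Yap1 and Stk3 were the genes higher in replicate 2. The log2 ratio was 0.40 for Yap1 (adjusted p = 1.08e-24, exact binomial test), which is at percentile 93.4 of all genes tested. For Stk3 it was 0.36 (adjusted p = 3.83e-17, exact binomial test), at percentile 91.8. Stk4, Tead1, Tead2, Tead3 and Tead4 were lower in replicate 2. The largest of these differences with many counts was that of Tead2, with a log2 ratio of -1.41 (adjusted p = 6.96e-28, exact binomial test). Tead3 had -1.60 from 24 counts in all (adjusted p = 0.024, exact binomial test), a call lost with TMM (-1.34, adjusted p = 0.0663) and DESeq2 factors (-1.29, adjusted p = 0.0962), and Tead4 had -0.79 (adjusted p = 1.97e-04, exact binomial test). The smaller ratios were -0.26 for Stk4 (adjusted p = 1.70e-09, exact binomial test) and -0.14 for Tead1 (adjusted p = 5.87e-04, exact binomial test). Wwtr1, Lats1 and Lats2 did not pass, with log2 ratios of 0.08, -0.04 and 0.15 and adjusted p values of 0.098, 0.588 and 0.536 in the same exact binomial test.

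These directions are relative to the scaling. The median log2 ratio of all genes tested was -0.31, and scaling by edgeR's TMM factors shifted every ratio by 0.26. With TMM, 5 of the 10 genes (Yap1, Stk3, Wwtr1, Lats1 and Tead1) were higher in replicate 2, beside 28.8% of all genes tested, and 2 (Tead2 and Tead4) lower, beside 28.9%. Either way, 57.7% of genes tested differed. With DESeq2 size factors, 6 of the 10 were higher (background 31.6%) and 2 lower (26.1%), out of 57.8% of genes tested that differed. A filter of 10 counts or more in both libraries left 9 of the 10 genes, of which 6 differed (background 65.2%), 2 higher (17.5%) and 4 lower (47.7%). With 1 count as the only filter, 7 differed (48.5%), 2 higher (12.1%) and 5 lower (36.4%). Of all calls, 24.9% were higher in replicate 2 with library totals, 49.9% with TMM factors and 54.8% with DESeq2 size factors.

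The ratios also moved with base composition. The GC content of the longest transcript and the log2 ratio had a Spearman correlation of -0.66 over 9239 autosomal genes that had 50 counts or more in both libraries, given as a description across genes of the same libraries. The cubic trend was -0.06 at 45% GC and -0.77 at 58% GC. Tead2, Tead3 and Tead4 have transcripts of 57.9%, 59.5% and 58.1% GC, and the other 7 genes lie between 42.5% and 52.2%. The part of GC in these differences was not tested beyond setting each gene against the trend.

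Against the trend, 4 of the 10 genes differed, 3 above and 1 below it, with a background of 44.4% of genes tested, 22.9% above and 21.5% below. Tead3 did not pass, with a log2 difference from the trend of -0.82 (adjusted p = 0.410, exact binomial test). Tead4 did not pass either, with a log2 difference from the trend of -0.01 (adjusted p = 0.988, exact binomial test). Tead2 was below it by a log2 difference of -0.64 (adjusted p = 4.72e-06, exact binomial test). Yap1 lay above it by 0.84 (adjusted p = 2.58e-104, exact binomial test), at percentile 97.1 of genes tested. Lats2 was above by 0.70 (adjusted p = 0.00136, exact binomial test) and Stk3 by 0.25 (adjusted p = 9.48e-09, exact binomial test). Yap1, Stk3 and Tead2 were the genes that passed in 1 direction under library totals, TMM factors, DESeq2 size factors, the GC trend and both other count filters.

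**Figure D4:**
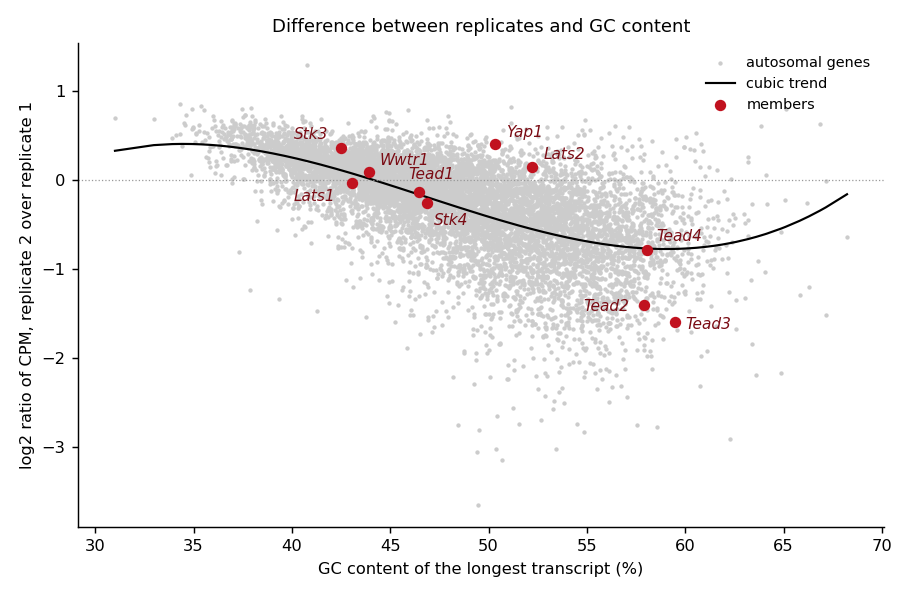
Log2 ratio of CPM, replicate 2 over replicate 1, against the GC content of the longest transcript (%), for 9239 autosomal genes (grey), the 10 genes (red) and the cubic trend (black). Tead2, Tead3 and Tead4 sit at the GC-rich end, where the trend is -0.77 at 58% GC, and Yap1 and Lats2 sit above the line.

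Genes of the lists around the core also differed between the libraries. With library totals, where 15.1% of all genes tested were higher and 45.7% lower in replicate 2, 3 of 14 tested upstream regulators were higher and 7 lower in replicate 2, and so were 3 and 6 of the 12 other kinases. The STRIPAK list had 7 higher and 6 lower of 15, the YAP and TAZ targets 2 higher and 7 lower of 18, and the VGLL cofactors 1 higher and 0 lower of 2. Set against the GC trend, with backgrounds of 22.9% higher and 21.5% lower, the targets had 9 higher and 0 lower, and the upstream regulators 6 higher and 0 lower. The other kinases had 4 higher and 2 lower, the STRIPAK list 6 higher and 3 lower, and the VGLL cofactors 1 higher and 0 lower. Of the embryonic stem cell markers, 2 of 14 were higher and 10 lower with library totals, and 4 were higher and 8 lower against the GC trend. Among the 3 highest targets, F3 had a log2 ratio of -0.26 with library totals (adjusted p = 0.00267, exact binomial test) and did not pass against the trend (adjusted p = 0.311, exact binomial test). Ccn2 had a log2 ratio of -0.34 (adjusted p = 3.83e-06, exact binomial test) and did not pass against the trend (adjusted p = 0.874, exact binomial test). Gadd45a had a log2 ratio of 0.19 with library totals (adjusted p = 0.0257, exact binomial test) and was above the trend (adjusted p = 2.92e-13, exact binomial test).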

How the data were processed

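Whole-number counts per gene were deposited by the authors for both libraries. Per the study's methods, stranded libraries were made from mRNA and counted with featureCounts 1.5.2 (read pairs, reverse strand, whole gene spans) on an mm10 annotation. The submitters' processing notes also list Bowtie2 2.3.2 and STAR 2.4.2a, and the aligner of these libraries is not given in the sources used here. The count columns carry the names of the descriptions without 1 letter, and both were mapped by name. The counts were not split by allele.

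TPM was computed with the union of exons in GENCODE M21 basic (mm10), found for 98.0% of genes (21239 by symbol and 876 by older symbol). Genes without it held 0.204% and 0.205% of counts. The deposited length spans introns, with a median of 15760.5 bases against 2801 for exons. The only test was a two-sided exact binomial test of each gene's counts against the ratio of library totals, Benjamini-Hochberg adjusted over all genes whose counts summed to 10 or more. It was also run on simulated counts that held only counting noise and set changes. That run cannot show how the test behaves on these libraries, which differ by more than counting noise. A permutation test of 2 against 2 values cannot go below p = 0.333 and was not used. Alternatives were edgeR 4.0.16 TMM factors, DESeq2 1.42.0 size factors, a GC trend, other count filters, other lengths and each library alone. Sums over paralogues on other lengths were added after seeing the data. Log2 ratios had 0.5 counts added. No gene of the count table overlaps any of the 10 genes on either strand. Intervals of shares were exact (Clopper-Pearson) on the counts and carried to the TPM scale. Those of single levels were Clopper-Pearson on the count out of the library total, and were carried to TPM too. Read pairs without molecular identifiers are not independent molecules.

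The 10 genes, the pathway and marker lists and the tests were chosen with earlier results of these data known. Genes named from the pathway lists are the 3 highest by mean TPM and those at 0 counts in both libraries, and others were named after their values were seen. This rule was not used for the embryonic stem cell, fibroblast and trophectoderm lists, whose named genes were picked with their values known. One characteristics label reads mESC to NPC, whereas the samples are labelled as embryonic stem cells at 0 h. R 4.3.3, Python 3.11.15 and scipy 1.17.1 were used.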

Additional observations from a re-analysis of the deposited data

How the results depend on the processing

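The length and the scaling decided most of what moved. Of the 10 genes, 7 differed between libraries with TMM factors (background 57.7% of genes tested) and 8 with DESeq2 size factors (57.8%). With at least 10 counts in each library 6 differed (65.2%), with at least 1 count 7 (48.5%), and against the GC trend 4 (44.4%). Log2 ratios changed sign for Lats1 (0.22 with TMM, 0.28 with DESeq2), Stk4 (0.049 with DESeq2) and Tead1 (0.12 with TMM, 0.18 with DESeq2, 0.031 against the GC trend). With the deposited length the shares were 69.1% for Yap1, 95.6% for Lats1, 23.4% for Stk3 and 44.6% for Tead1. With no length they were 93.1% for Lats1, 51.0% for Stk3 and 88.2% for Tead1, and with the longest transcript 90.7% for Lats1. At a floor of 5 TPM, 7 of the 10 genes, 0 VGLL cofactors and 0 fibroblast markers passed, and with the deposited length 1 of each of those lists did at 1 TPM. With each library alone, the shares ranged from 58.2% to 63.4% for Yap1, 91.9% to 92.8% for Lats1, 59.7% to 69.5% for Stk3 and 65.3% to 80.3% for Tead1. The fibroblast markers at 1 TPM ranged from 1 to 2, with 1 without replicate 1, since Thy1 had 32 and 2 counts. No paired analysis was possible because there was 1 group. The binomial test cannot be run with a library left out. Depth limits Tead3, with 19 and 5 counts, and 2 libraries of 1 clone limit every SD.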
